A study of Mus musculus with 12 samples.

Results

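The 8 genes described here encode receptors for the growth factors that drive the making of myeloid blood cells: Csf1r, Kit, Flt3, Csf3r, Csf2ra, Il3ra, Csf2rb and Csf2rb2. All CpGs from 5 kb outside each end of a gene through its body were taken, on the mm10 coordinates of the gene, where both strands together had at least 10 calls in every one of the 12 libraries. This gave 373 CpGs in 8 loci, out of 1052856 CpGs and 17319 measured protein-coding loci. The genes were chosen by name and role, with earlier results of these data known.

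Reduced representation bisulfite sequencing, which reads methylated and unmethylated cytosines in CpG-rich restriction fragments, was carried out on DNA of mouse acute myeloid leukaemia cells called CMM, from a study of inv(16) leukaemia. The GFP-marked cells were grown in C57BL/6 mice, treatment began at about 1% GFP-positive cells in blood, and spleens were taken 1 day after the last of 3 intravenous injections. The CD11b-positive group (4 libraries) and the CD11b-negative group (4 libraries) are GFP-positive cells, sorted by the myeloid surface protein CD11b, from mice given CpG-STAT3dODN, in which an immune-stimulating CpG oligonucleotide is linked to a decoy of the DNA site that the transcription factor STAT3 binds. The PBS group (4 libraries) is GFP-positive cells of mice given saline, not divided by CD11b, so treatment and sorting cannot be told apart in a comparison with it. Both treated groups share the oligonucleotide, and all 3 groups share the leukaemia and the host strain. The submitters' design text asks about DNA methyltransferases in the CD11b-positive subset against the other cells. The labels do not tie the libraries to individual mice, and the tests therefore see only how libraries vary, which may be technical. DNA methylation gives no level of a receptor and no check of the CD11b sort. A library gives the mean over its cells, so a change in each cell and a change in the mix of cells cannot be told apart.

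Growth factor receptors of blood cells fall into a pair of families. Csf1r, Kit and Flt3 are receptor tyrosine kinases that phosphorylate themselves when their ligand pairs them, while the cytokine receptors Csf3r, Csf2ra, Il3ra, Csf2rb and Csf2rb2 have no kinase of their own and signal through bound JAK kinases to STAT proteins. Stem and progenitor cells carry Kit and Flt3, and monocytes and granulocytes come to depend on Csf1r, Csf3r and the receptor for GM-CSF. In most tissues CpG-rich start sites of genes carry little methylation, and methylation inside genes differs between cell types.

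Total calls per library ran from 112671408 to 157223205. CpGs with any call ran from 3706073 to 6823989 in CD11b-positive libraries, without overlap with the 2826185 to 3373246 of PBS libraries. In CD11b-negative libraries they ran from 2951358 to 6500217. The highest of each treated group was its library 2. What this breadth adds to the differences was not tested. The sex of the leukaemia cells and of the host mice is not given in the labels, so what calls on Y-linked genes stand for was not tested. Calls on 8 such genes ran from 22.9 to 39.7 per 1000000 autosomal calls in the CD11b-positive group, from 8.42 to 38.6 in the CD11b-negative group and from 5.22 to 18.2 in the PBS group. CD11b-negative library 2 stood apart from the other 3 of its group: its share was 38.6, near the 39.7 of CD11b-positive library 2, and the other 3 reached at most 12.4. Results that rest on it are given with and without it. The Y-linked share moved with the groups and did not overlap between CD11b-positive and PBS libraries. A model with both separates them poorly, and its differences between these groups rest on extrapolation. With that share as a further term in the model, 1 of all 17319 loci and 0 of the 8 receptor loci were called between CD11b-positive and PBS cells.

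Of the 8 receptor loci, 7 had higher mean methylation in CD11b-positive cells than in PBS cells and 1, Csf2ra, had lower. A locus value is the mean over its CpGs with equal weight, and a call needs an adjusted p below 0.05 in a quasi-binomial model over all loci (Benjamini-Hochberg) and a difference of at least 10 percentage points. All 8 loci had an adjusted p below 0.05, as did 68.7% of all loci. The called loci were 2, Csf2rb2 and Csf1r, both higher. Across all loci 19.1% were called and 15.4% were called higher, so the share of the receptor loci called was near the background. The difference of the receptor loci had a median of 4.94 points, against 1.93 points for all loci. At the level of tiles and of single CpGs the receptor medians were below those of all units, at 1.89 points against 4.98 points for tiles and at 0 points against 0.343 points for CpGs. Csf2ra held 175 of the 373 receptor CpGs. Over the 198 CpGs outside it the median was 0.352 points, near that of all CpGs. In 7 of the 8 loci the values of the CD11b-positive and PBS libraries did not overlap (6 higher, 1 lower), which held for 67.6% of all loci (61.4% higher). The exception was Il3ra.

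**Figure D1:**
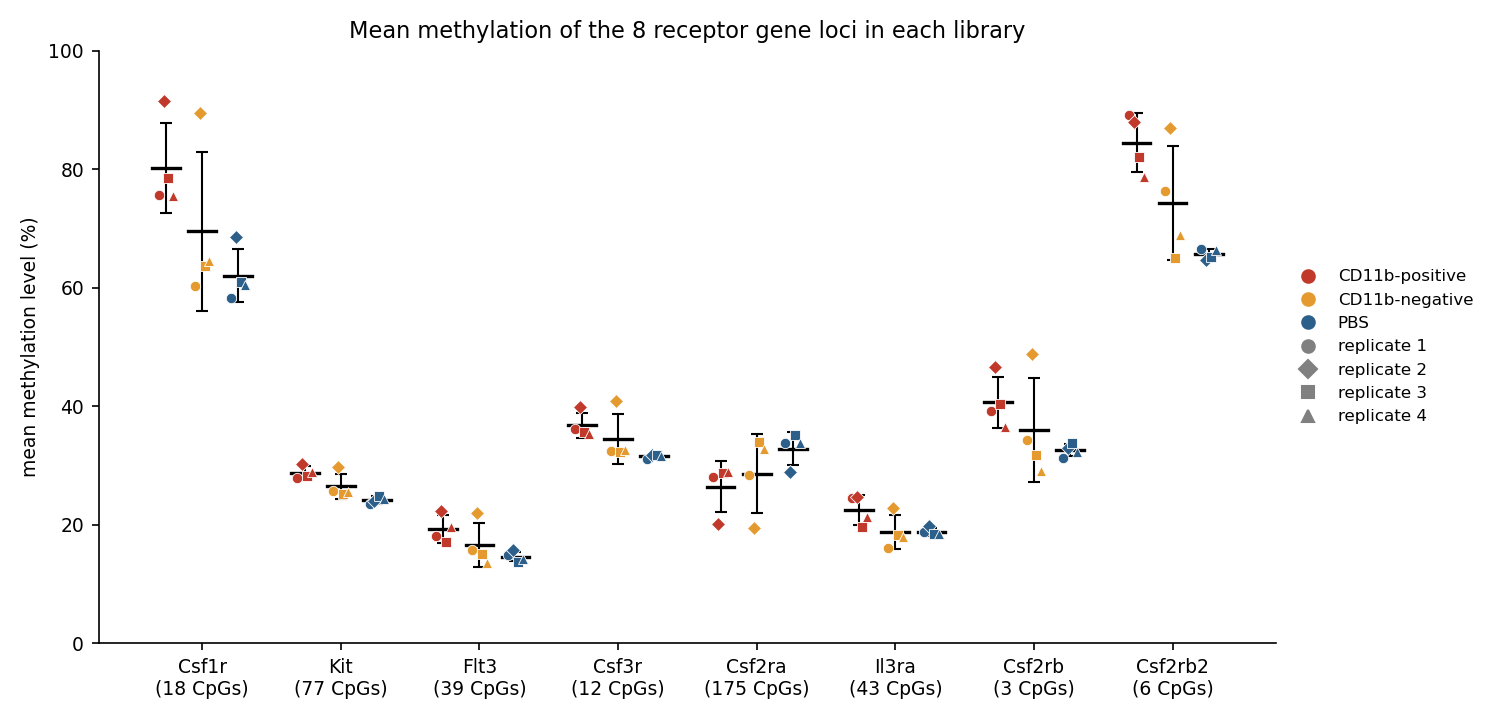
Mean methylation level (%) of each receptor locus in each library, with CD11b-positive libraries at the left, CD11b-negative in the middle and PBS at the right of each gene. Bars are mean ± SD of 4 libraries. The Csf1r locus lay between 75.5 and 91.5% in CD11b-positive libraries and between 58.3 and 68.5% in PBS libraries, and replicate 2 (diamonds) was the highest Csf1r value of each group.

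Csf1r encodes the receptor for CSF1 and IL-34, on which monocytes and macrophages depend. Its locus (mm10 chromosome 18, gene at 61105572 to 61131139) held 18 measured CpGs. The locus was methylated at 75.6, 91.5, 78.6 and 75.5% in the CD11b-positive libraries 1 to 4. It was methylated at 60.2, 89.5, 63.7 and 64.6% in the CD11b-negative libraries, and at 58.3, 68.5, 60.9 and 60.5% in the PBS libraries. Every CD11b-positive library was above every PBS library, and CD11b-negative library 2 was far above the other 3 of its group. The mean was 80.3% ± 7.60 in CD11b-positive cells, 69.5% ± 13.5 in CD11b-negative cells and 62.1% ± 4.45 in PBS cells (SD, n = 4 each). CD11b-positive cells exceeded PBS cells by 18.2 points (SE 4.41, adjusted p = 0.00672). This call was kept without any single library, at 14.5 to 20.4 points. With the Y-linked share in the model the difference was 1.86 points (adjusted p = 0.779).

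Of the 10 CpGs called in Csf1r, 8 lay among 11 CpGs that are 4104 to 4610 bp inside the gene from its lower-coordinate end. The mean over these CpGs was 79.0, 93.3, 80.6 and 78.6% in CD11b-positive libraries, 61.0, 91.2, 65.3 and 68.8% in CD11b-negative libraries, and 58.8, 69.8, 62.2 and 59.3% in PBS libraries. The stretch was delimited after its values were seen, so it carries no test of its own. All 8 called CpGs in it were higher in CD11b-positive cells than in PBS cells. In the 1000-bp tile from 61109001, one of 3 called tiles of Csf1r, the level was 81.9% ± 7.61 in CD11b-positive cells and 56.9% ± 7.26 in PBS cells (SD, n = 4 each), a difference of 24.9 points (adjusted p = 0.00366). The other named tile, from 61104001, starts outside the gene, at -1571 bp from its lower-coordinate end. There the level was 80.2% in CD11b-positive cells and 62.6% in PBS cells (adjusted p = 0.0183), and the values did not overlap. With the Y-linked share in the model its difference was -3.05 points. A single CpG at 61128048 near the other end of the gene was at 56.1% in CD11b-positive cells, 35.1% in CD11b-negative cells and 27.1% in PBS cells. It is named here because of its values. No strand or promoter sequence of Csf1r was used.

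**Figure D2:**
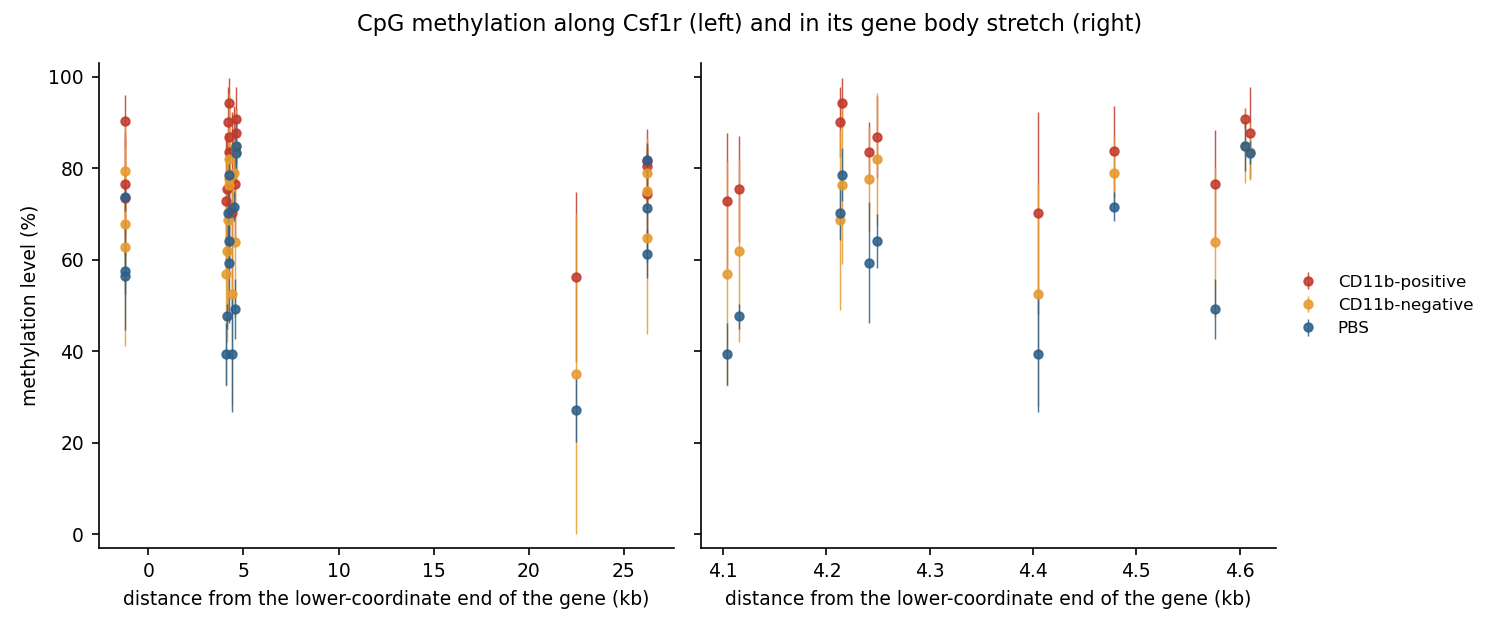
Methylation level (%) of the 18 measured CpGs of Csf1r against distance in kb from the lower-coordinate end of the gene, with the 11 CpGs 4104 to 4610 bp inside that end enlarged at the right. Points are means and bars SD of 4 libraries. CD11b-positive means lie above PBS means at each enlarged CpG, and the widest bars belong to the CD11b-negative group.

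Kit encodes the receptor for stem cell factor, a marker of haematopoietic stem and progenitor cells and of many myeloid leukaemias. Its locus (mm10 chromosome 5, gene at 75574987 to 75656722, plus strand) held 77 measured CpGs, of which 48 lay from -329 to 783 bp from the start site. The promoter window chr5:75574737-75575036 of RefSeq (GRCm38.p6) is shown because it holds the unmethylated start of the gene, with the measured CpGs in capitals.
Kit promoter: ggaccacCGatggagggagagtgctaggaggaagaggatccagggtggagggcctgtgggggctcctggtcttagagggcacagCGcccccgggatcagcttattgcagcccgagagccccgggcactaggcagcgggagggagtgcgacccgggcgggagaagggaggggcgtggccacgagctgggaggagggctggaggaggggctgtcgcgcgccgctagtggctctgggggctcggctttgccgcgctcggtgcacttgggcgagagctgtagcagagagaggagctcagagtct
The CpGs around the start were nearly free of methylation in every library: their mean ran from 0.528 to 1.15% in CD11b-positive libraries, from 0.381 to 0.792% in CD11b-negative libraries and from 0.448 to 0.615% in PBS libraries. None of these 48 CpGs was called. Over the whole locus the level was 28.8% ± 1.03 in CD11b-positive cells, 26.5% ± 2.12 in CD11b-negative cells and 24.2% ± 0.598 in PBS cells (SD, n = 4 each). That locus difference of 4.63 points over PBS passed the p threshold (adjusted p = 0.00317) but not the 10 points of a call.

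The called CpGs of Kit lay in one place, 6 CpGs 33088 to 33329 bp downstream of the start (75608075 to 75608316). They were methylated at 43.0, 82.8, 54.4 and 57.3% in the CD11b-positive libraries 1 to 4. The same CpGs were at 25.9, 74.9, 19.1 and 19.4% in the CD11b-negative libraries and at 4.67, 6.76, 16.6 and 11.7% in the PBS libraries. Every library of either treated group was above every PBS library, and CD11b-negative library 2 lay among the CD11b-positive values. These 6 CpGs make up the tile from 75608001, where CD11b-positive cells had 49.4 points more than PBS cells (SE 8.81, adjusted p = 0.00180), the largest difference of the 28 tiles in the receptor loci. All 6 CpGs were called, with or without any single library, and they were the only called CpGs of Kit. With the Y-linked share in the model the tile difference was 30.8 points (adjusted p = 0.262) and 1 of the 6 CpGs was called. The tile from 75578001, closer to the start, was at 5.88% in CD11b-positive cells, 5.78% in CD11b-negative cells and 3.70% in PBS cells. The tiles from 75589001, 75594001 and 75629001 were at 93.6, 92.3 and 93.2% in CD11b-positive cells, against 90.9, 89.7 and 91.5% in PBS cells. The gene table used holds no exons, so whether the 6 CpGs are exonic or intronic is not stated.

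**Figure D3:**
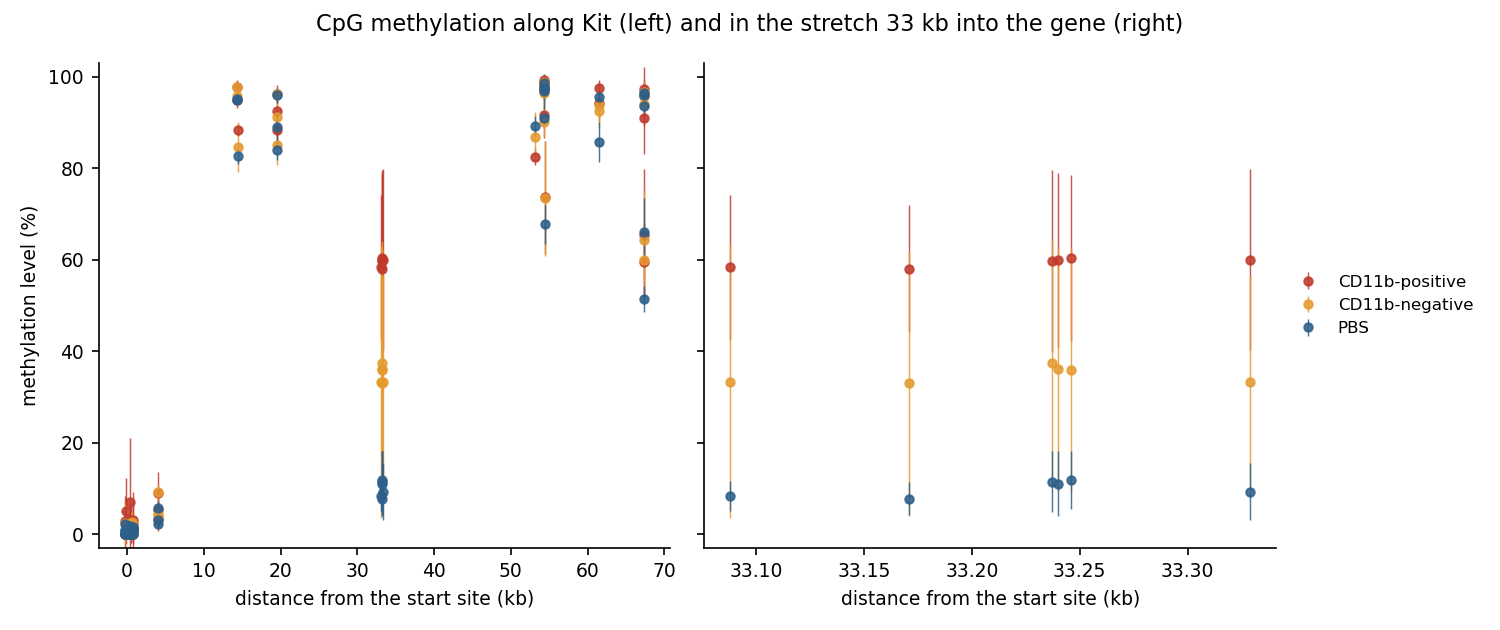
Methylation level (%) of the 77 measured CpGs of Kit against distance from its start site in kb, with the 6 CpGs 33088 to 33329 bp downstream enlarged at the right. Points are means and bars SD of 4 libraries. The start is near 0% in all groups, and at the 6 enlarged CpGs CD11b-positive means are near 59.4%, CD11b-negative means near 34.8% and PBS means near 9.94%.

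Flt3 encodes the receptor for FLT3 ligand, active in early progenitors and in dendritic cell formation, and often mutated in acute myeloid leukaemia. Its locus (mm10 chromosome 5, gene at 147330741 to 147400489, minus strand) held 39 measured CpGs. The promoter window chr5:147400440-147400739 of RefSeq is shown on the strand of the gene, as another unmethylated start, with the measured CpGs in capitals.
Flt3 promoter: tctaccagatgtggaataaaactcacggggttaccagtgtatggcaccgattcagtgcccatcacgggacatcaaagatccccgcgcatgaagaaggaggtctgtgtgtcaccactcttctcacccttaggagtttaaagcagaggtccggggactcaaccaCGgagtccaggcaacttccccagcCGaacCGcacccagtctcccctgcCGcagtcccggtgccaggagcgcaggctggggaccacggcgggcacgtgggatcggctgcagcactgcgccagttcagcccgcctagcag
The 4 capital CpGs were at 0.824 to 3.93% in CD11b-positive cells, 1.03 to 5.78% in CD11b-negative cells and 0.968 to 5.58% in PBS cells. Across 25 CpGs around the start the mean ran from 0.648 to 4.27% in CD11b-positive libraries, from 0.350 to 3.77% in CD11b-negative libraries and from 3.69 to 6.85% in PBS libraries, and none was called. The locus mean was 19.3% ± 2.30 in CD11b-positive cells, 16.6% ± 3.75 in CD11b-negative cells and 14.6% ± 0.829 in PBS cells (SD, n = 4 each), a difference of 4.67 points over PBS (adjusted p = 0.00588).

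Inside Flt3, 7 CpGs 30150 to 32481 bp from the start were at 66.1, 90.1, 66.9 and 71.8% in the CD11b-positive libraries. They were at 56.9, 86.1, 51.4 and 46.7% in the CD11b-negative libraries and at 42.9, 52.5, 44.0 and 47.2% in the PBS libraries. The CD11b-positive and PBS values did not overlap, and 5 of these 7 CpGs were called higher in CD11b-positive cells. In the tile from 147369001 the level was 75.2% ± 8.25 in CD11b-positive cells and 58.4% ± 3.34 in PBS cells (SD, n = 4 each), 16.8 points apart (adjusted p = 0.00940). The CpG with the largest difference, at 147368008, was at 53.8, 89.3, 53.6 and 69.2% in CD11b-positive libraries and at 18.0, 33.3, 9.09 and 22.2% in PBS libraries. Its depth was the lowest of the named CpGs, with 12 to 50 calls per library. Its difference was 14.4 points (adjusted p = 0.879) with the Y-linked share in the model, and with all 12 libraries in one fit its adjusted p was 0.0513. A further called CpG lay 9945 bp from the start (147390544), at 71.6% in CD11b-positive cells and 45.3% in PBS cells.

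Csf3r encodes the receptor for G-CSF, which drives neutrophil formation. Its locus (mm10 chromosome 4, gene at 126023441 to 126044975, plus strand) held 12 measured CpGs. Distances from a start are counted from the start of the RefSeq promoter table, which lies inside the outer bounds of the gene for Csf3r (126024659), Csf2ra (61228418) and Il3ra (14346495). It was methylated at 36.1, 39.9, 35.7 and 35.3% in CD11b-positive libraries, 32.4, 40.8, 32.3 and 32.6% in CD11b-negative libraries, and 31.03, 31.7, 31.8 and 31.7% in PBS libraries. All CD11b-positive libraries and all CD11b-negative libraries were above all PBS libraries. The difference of CD11b-positive over PBS cells was 5.21 points (SE 1.07, adjusted p = 0.00826), below the 10 points of a call. The 2 called CpGs of the locus were neighbours, 18087 and 18120 bp from the start. The first of them, at 126042746, was at 71.9, 79.7, 55.4 and 49.1% in CD11b-positive libraries, 30.2, 77.1, 20.99 and 16.4% in CD11b-negative libraries, and 12.2, 25.5, 18.97 and 18.2% in PBS libraries. That is 45.3 points more in CD11b-positive than in PBS cells (adjusted p = 0.000703), and 23.3 points (adjusted p = 0.505) with the Y-linked share in the model. The second, at 126042779, was at 78.6% in CD11b-positive cells and 60.0% in PBS cells. The tile at the start, from 126024001, had 6.38% in CD11b-positive cells, 10.2% in CD11b-negative cells and 8.86% in PBS cells and was not called.

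Csf2ra encodes the alpha chain that binds GM-CSF, and it was the only receptor gene with CpGs called lower. Its locus (mm10 chromosome 19, gene at 61217191 to 61228461, minus strand) held 175 measured CpGs, 51.2% of those listed in any library, the largest number of the 8 genes. The promoter window chr19:61228369-61228668 of RefSeq is shown because methylation changes within it, with the measured CpGs in capitals.
Csf2ra promoter: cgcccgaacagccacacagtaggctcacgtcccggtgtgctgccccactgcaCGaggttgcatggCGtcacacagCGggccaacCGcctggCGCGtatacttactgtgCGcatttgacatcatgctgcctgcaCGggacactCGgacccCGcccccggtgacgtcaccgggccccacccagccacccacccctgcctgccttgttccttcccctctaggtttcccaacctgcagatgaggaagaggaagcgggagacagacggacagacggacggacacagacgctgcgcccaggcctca
Reading towards the start, the first capital CpG was at 68.8% in CD11b-positive cells, 65.9% in CD11b-negative cells and 56.8% in PBS cells. The next 6 were at 84.0 to 91.5% in CD11b-positive cells, 81.3 to 96.8% in CD11b-negative cells and 85.4 to 96.7% in PBS cells. The last 3, at -117 to -101 bp from the start, were at 13.2 to 20.4% in CD11b-positive cells, 9.91 to 13.0% in CD11b-negative cells and 5.65 to 6.06% in PBS cells. The step from methylated to little methylated DNA lay between the same neighbouring CpGs in all 3 groups, 61228534 and 61228559. Of the last 3, those at 61228518 and 61228525 were called higher in CD11b-positive than in PBS cells, by 13.5 and 14.3 points (adjusted p = 0.0309 and 0.0178). Neither was called without PBS library 1 or PBS library 4, and 1 of the 2 was called without CD11b-positive library 2 or 3 or PBS library 2.

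Farther into Csf2ra, 88 CpGs 1156 to 2077 bp from the start had means of 1.74 to 2.33% in CD11b-positive libraries, 1.53 to 2.10% in CD11b-negative libraries and 1.65 to 2.19% in PBS libraries, and none was called. The next 69 CpGs, 2137 to 3108 bp from the start, were methylated. Their mean was 57.2, 36.9, 60.0 and 60.1% in CD11b-positive libraries, 58.9, 34.5, 73.1 and 70.5% in CD11b-negative libraries, and 73.3, 59.9, 75.3 and 72.3% in PBS libraries. CD11b-positive library 2 and CD11b-negative library 2 were the lowest, and PBS library 2 was within the range of the CD11b-positive group. Of these 69 CpGs, 22 were called lower in CD11b-positive than in PBS cells. Their differences ran from -33.6 to -11.9 points, and the largest, at 61225825, was 38.5% ± 16.2 in CD11b-positive cells against 72.1% ± 11.5 in PBS cells (SD, n = 4 each). The count was 8 without PBS library 1, 9 without PBS library 3, 10 without PBS library 4 and 13 without CD11b-positive library 1. Over all CpGs those called lower fell from 36632 to 18911, 18601, 22481 and 28311 in these fits.

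The tile from 61225001, with 45 of these CpGs, had 59.4% in CD11b-positive cells, 65.9% in CD11b-negative cells and 77.3% in PBS cells, 18.0 points lower than PBS in CD11b-positive cells (difference -17.96, adjusted p = 0.0301). Its CD11b-positive and PBS values overlapped, and the adjusted p was 0.0602 to 0.0723 without CD11b-positive library 1 or PBS library 1, 3 or 4. With the Y-linked share in the model the difference was 4.97 points, in the other direction. Over the whole locus the level was 26.4% ± 4.27 in CD11b-positive cells, 28.6% ± 6.62 in CD11b-negative cells and 32.8% ± 2.74 in PBS cells (SD, n = 4 each). That locus difference was -6.42 points (adjusted p = 0.0376), and the adjusted p was above 0.05 without CD11b-positive library 1 or PBS library 1, 3 or 4 (0.0516 to 0.0895).

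**Figure D4:**
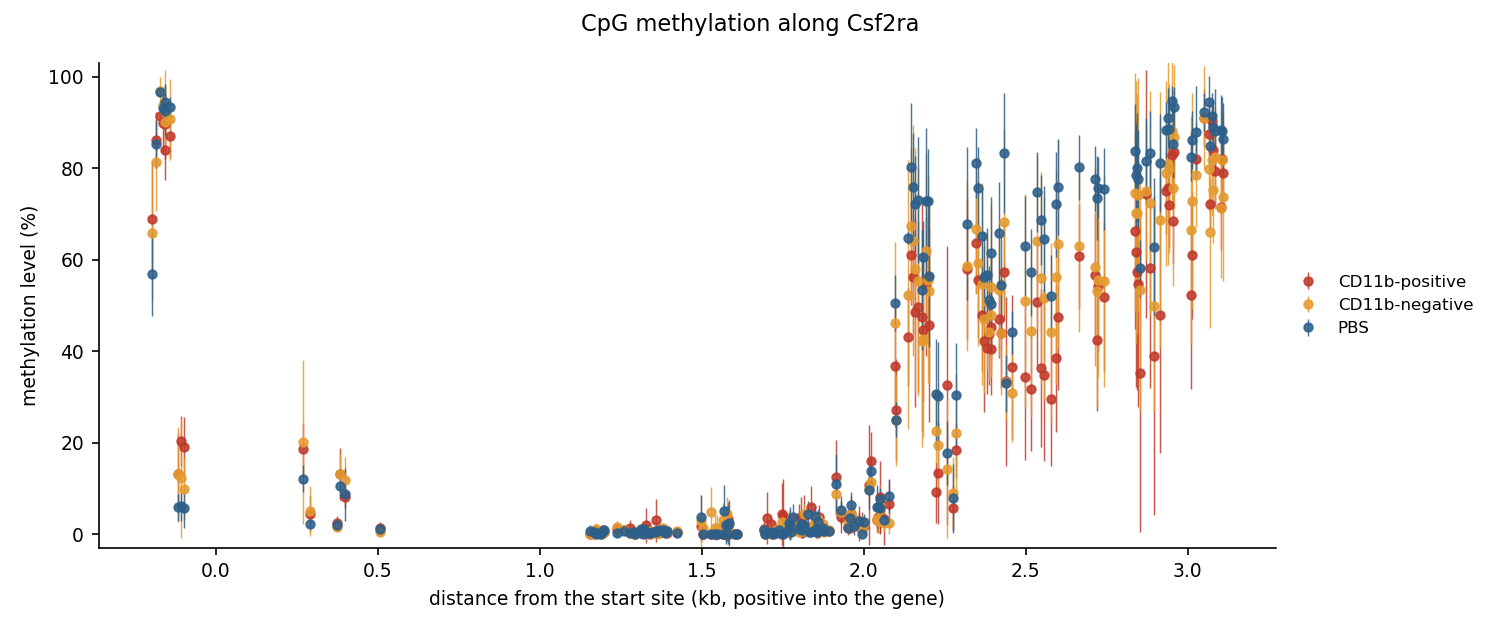
Methylation level (%) of the 175 measured CpGs of Csf2ra against distance from its start site in kb, positive into the gene. Points are means and bars SD of 4 libraries. CpGs 1156 to 2077 bp into the gene have means below 20% in all groups, and most CpGs beyond 2137 bp have lower CD11b-positive than PBS means.

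Il3ra encodes the alpha chain that binds IL-3. Its locus (mm10 chromosome 14, gene at 14345912 to 14355493, plus strand) held 43 measured CpGs. The promoter window chr14:14346245-14346544 of RefSeq is shown as the third unmethylated start, with the measured CpGs in capitals.
Il3ra promoter: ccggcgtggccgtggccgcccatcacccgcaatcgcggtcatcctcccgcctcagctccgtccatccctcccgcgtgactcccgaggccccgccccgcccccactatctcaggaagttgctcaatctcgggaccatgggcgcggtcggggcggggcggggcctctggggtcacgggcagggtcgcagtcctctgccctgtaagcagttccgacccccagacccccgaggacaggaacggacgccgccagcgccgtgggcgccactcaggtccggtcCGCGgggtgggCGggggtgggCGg
Its 4 capital CpGs were at 0 to 1.93% in CD11b-positive cells, 0.543 to 1.18% in CD11b-negative cells and 1.00 to 2.99% in PBS cells. Just beyond, 6 CpGs 253 to 313 bp after the start were at 52.3, 40.5, 27.0 and 28.5% in CD11b-positive libraries, 6.46, 28.2, 13.5 and 12.04% in CD11b-negative libraries, and 14.4, 18.3, 8.503 and 17.7% in PBS libraries. All CD11b-positive values were above all PBS values, yet none of these 6 CpGs was called. In the tile from 14347001 the level was 79.2% ± 9.01 in CD11b-positive cells and 65.4% ± 4.35 in PBS cells (SD, n = 4 each), with overlapping values. The difference of 13.9 points was called (adjusted p = 0.0380). The call was lost without CD11b-positive library 1 or PBS library 1, 3 or 4 (adjusted p = 0.0824 to 0.0897), and without CD11b-positive library 2, when the difference was 9.98 points. One CpG of Il3ra was called, at 14347434, with 53.6% in CD11b-positive cells and 24.6% in PBS cells (adjusted p = 0.0235). Without CD11b-positive library 1 or PBS library 1, 3 or 4 its adjusted p was 0.0600 to 0.0674. The call was also lost with all 12 libraries in one fit (adjusted p = 0.109) and with limma (adjusted p = 0.0541). The Y-linked share as a term gave this CpG a difference of -5.31 points and the tile -4.12 points, in the other direction. The whole locus was at 22.5% ± 2.495 in CD11b-positive cells, 18.8% ± 2.85 in CD11b-negative cells and 18.8% ± 0.689 in PBS cells (SD, n = 4 each), and CD11b-positive library 3 lay within the PBS range. Its difference over PBS was 3.70 points (adjusted p = 0.0265).

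Csf2rb encodes the common beta chain, the signalling subunit shared by the receptors for GM-CSF, IL-3 and IL-5, and Csf2rb2 is the beta chain that in mice serves IL-3 alone. They are neighbours on mm10 chromosome 15, with Csf2rb2 at 78282507 to 78305721 and Csf2rb at 78325800 to 78351001. Csf2rb2 had the largest locus difference of the 8 genes, although only 6 of its 166 listed CpGs were measured in all libraries. It was methylated at 89.2, 88.0, 82.0 and 78.7% in CD11b-positive libraries, 76.3, 86.9, 65.0 and 69.0% in CD11b-negative libraries, and 66.5, 64.6, 65.2 and 66.3% in PBS libraries. Every CD11b-positive library was above every PBS library, and the PBS libraries differed from one another by less than 2 points. The difference was 18.8 points (SE 2.53, adjusted p = 0.00324), and it stayed called without any single library. With the Y-linked share in the model it was 16.1 points (adjusted p = 0.121). All 6 CpGs lie in the tile from 78285001, and 4 of them, 20049 to 20225 bp from the start on the minus strand, were called higher. The largest, at 78285523, was at 82.8% ± 8.01 in CD11b-positive cells and 49.1% ± 6.81 in PBS cells (SD, n = 4 each).

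Csf2rb had 3 measured CpGs of 210 listed. The locus was at 39.2, 46.6, 40.4 and 36.4% in CD11b-positive libraries, 34.2, 48.8, 31.7 and 29.1% in CD11b-negative libraries, and 31.3, 32.96, 33.8 and 32.3% in PBS libraries. CD11b-positive exceeded PBS cells by 8.07 points (adjusted p = 0.0130), without overlap and without a call. With at least 5 calls per CpG, 7 CpGs were measured and the difference was 19.7 points, which was called (adjusted p = 0.00347). Its one called CpG, at 78326333, was at 14.1, 29.9, 16.6 and 11.4% in CD11b-positive libraries and at 3.11, 5.37, 4.95 and 4.92% in PBS libraries. Without CD11b-positive library 2 that difference was 9.47 points, below the 10 points of a call.

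**Figure D5:**
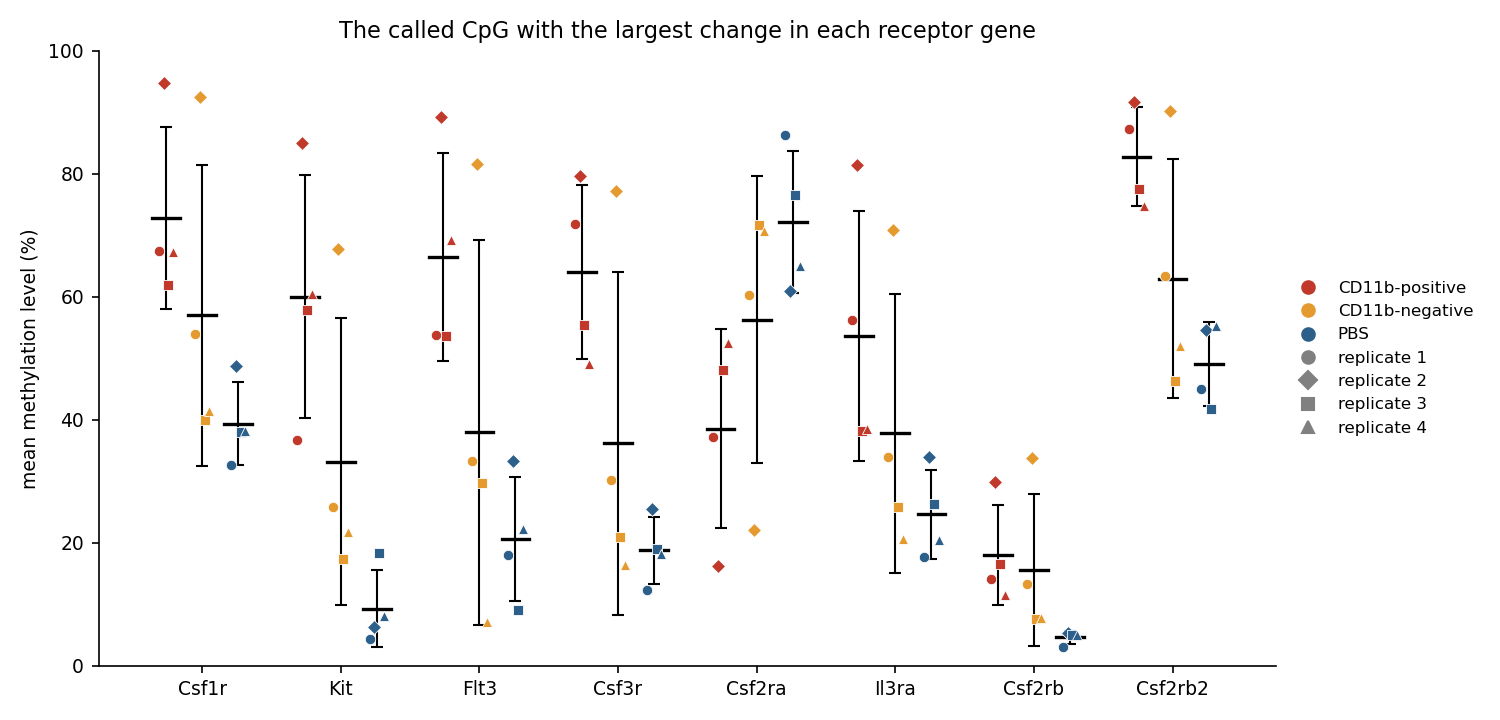
Methylation level (%) in each library of the called CpG with the largest difference between CD11b-positive and PBS cells in each receptor gene. Groups run from CD11b-positive at the left to PBS at the right, and bars are mean ± SD of 4 libraries. At all 8 CpGs the CD11b-positive and PBS libraries do not overlap. The 8 were picked by that difference, so their lack of overlap is no further result. Csf2ra alone is lower in CD11b-positive cells.

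None of the 8 CpGs of largest difference, 1 in each gene, was called with the Y-linked share in the model. The shares of single CpGs and tiles called in the receptor loci were near those of all CpGs and tiles. Of the 28 tiles, 8 were called between CD11b-positive and PBS cells (7 higher, 1 lower), against 36.1% of all tiles (32.4% higher, 3.69% lower). The tile count fell to 5 without PBS library 3 or PBS library 4. Over all 87020 tiles the count fell from 31384 to 27933 and 28258 in those fits. Of the 373 CpGs, 55 were called (33 higher, 22 lower), against 16.7% of all CpGs (13.3% higher, 3.48% lower), and all 22 lower ones were in Csf2ra. The CpG count was 35 without PBS library 1, 3 or 4. Over all 1052856 CpGs it fell from 176291 to 119786, 122525 and 128333 in those fits. Within 1000 bp of a RefSeq start, 3 of 134 CpGs were called, where 5.97% of all such CpGs were. Farther away, 52 of 239 were called, where 24.2% of all such CpGs were. By PBS level, 34 of the 75 CpGs at 20 to 80% were called, where 52% of all such CpGs were. Below that range 12 of 231 were called, and above it 9 of 67, where 5.25% and 3.94% of all such CpGs were. The PBS level is part of this difference, so that split is only a description.

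In CD11b-negative against PBS cells no receptor locus, tile or CpG was called. None of the 17319 loci (0%) was called either, by the quasi-binomial model or by limma, while 941 loci had an unadjusted p below 0.05, none of them a receptor locus. Of the 28 receptor tiles 2 and of the 373 receptor CpGs 14 had an unadjusted p below 0.05 by the quasi-binomial model. Over all units 7939 of 87020 tiles and 53383 of 1052856 CpGs did. No tile or CpG was called by limma. Csf3r and Kit did not overlap between these groups, which held for 10.9% of all loci, and both were higher in CD11b-negative cells, by 2.98 and 2.35 points. Much of this came from CD11b-negative library 2, at 40.8% in Csf3r and 29.7% in Kit. The others of its group were at 32.3 to 32.6% and 25.2 to 25.6%, against PBS values of up to 31.8% and 24.9%. With pooled counts both differences were negative. The differences of the 8 loci ran from -4.20 points in Csf2ra to 8.62 points in Csf2rb2. Without CD11b-negative library 2 the difference was 4.40 points in Csf2rb2 and 0.78 points in Csf1r, and no receptor locus was called. A difference of 15 points was recovered in 35 of 100 simulated loci in this comparison and one of 30 points in 81 of 100. These changes were placed only in loci of middle methylation. Flt3, Il3ra, Kit and Csf2ra lay below that range and Csf2rb2 above it, so the rates do not show what could be found in these genes.

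Between CD11b-positive and CD11b-negative cells no receptor locus was called either (0% of all loci called). By the quasi-binomial model 1131 loci had an unadjusted p below 0.05, 1 of them a receptor locus (Csf2rb2), and limma called none. All 8 receptor loci overlapped between these groups, while 1.48% of all loci did not. The Csf1r difference was 10.8 points (adjusted p = 0.348) and that of Csf2rb2 10.2 points (adjusted p = 0.348). Without CD11b-negative library 2, 2 of the receptor loci were called, where 13.7% of all loci were: Csf1r at 17.4 points (adjusted p = 0.0243) and Csf2rb2 at 14.4 points (adjusted p = 0.0241). Receptor tiles called then were 4, of Kit, Il3ra, Csf2rb2 and Csf1r, and receptor CpGs 29, where 19.8% of all tiles and 7.32% of all CpGs were called. The shared replicate number was also used as a block, which treats same-numbered libraries as pairs. The labels do not give this pairing. Only number 2 stood clear in the correlations (0.966). PBS library 2, from mice given saline, also correlated with it (0.833 and 0.865), so the correlations do not establish pairs. With the block Csf1r was called at 10.9 points (adjusted p = 0.0312), where 4.94% of all loci were. The block also gave calls in 3 receptor tiles, of Kit, Csf2rb2 and Csf1r, and in 22 receptor CpGs, where 12.7% of all tiles and 6.65% of all CpGs were called. Without the block no tile or CpG was called (0% of all) by either tool. By the quasi-binomial model 2 of 28 receptor tiles and 15 of 373 receptor CpGs had an unadjusted p below 0.05. Over all units 9442 of 87020 tiles and 72326 of 1052856 CpGs did. The 6 Kit CpGs differed by 24.6 points (adjusted p = 0.389) without the block and by 29.95 points (adjusted p = 0.00569) with it. Without CD11b-negative library 2 and without the block they differed by 37.9 points (adjusted p = 0.0243).

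Other genes of the same pathway were taken from lists of their ligands, of related receptors and of signalling proteins. Of 8 ligand genes, 4 were called higher and 1 lower in CD11b-positive than in PBS cells, with a median difference of 10.2 points. Of all loci 15.4% were called higher and 19.1% in either direction, with a median of 1.93 points. The locus of Il3, the ligand of Il3ra, was at 49.9% ± 12.4 in CD11b-positive cells, 25.3% ± 27.3 in CD11b-negative cells and 14.2% ± 7.75 in PBS cells (SD, n = 4 each; adjusted p = 0.00408 for CD11b-positive over PBS). Il5, a ligand of a further receptor that uses Csf2rb, was at 78.4% in CD11b-positive cells and 54.5% in PBS cells (adjusted p = 0.0139). These levels rest on few measured CpGs, 4 for Il3 and 3 for Il5. Kitl, the ligand of Kit, was lower, at 32.9% in CD11b-positive cells and 50.1% in PBS cells (adjusted p = 0.00822). Of 11 measured related receptors, 4 were called higher and none lower. Among them was Il7r, the receptor chain for IL-7, at 84.6% in CD11b-positive cells and 65.3% in PBS cells (adjusted p = 0.00335), with Il2rg and Pdgfrb. Only 4 CpGs were measured for Il7r and 3 for Il2rg. Of 23 signalling genes, 1 was called, Cish, a STAT5-induced inhibitor of these receptors, at 43.1% in CD11b-positive cells and 18.0% in PBS cells (adjusted p = 0.00551), and the median difference was 1.12 points. No gene of the 3 lists was called in the other comparisons.

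Loci that mark other blood cells were called in the same comparison too. Higher in CD11b-positive than in PBS cells were 4 of 9 T cell loci, 1 of 7 B cell loci, 3 of 7 erythroid loci and 4 of 6 myeloid loci, and 1 T cell locus was lower, where 15.4% of all loci were called higher and 19.1% in either direction. The myeloid ones included Itgam, which encodes CD11b, at 64.0% in CD11b-positive cells, 54.8% in CD11b-negative cells and 44.3% in PBS cells (adjusted p = 0.00518 for CD11b-positive over PBS). The part of other cell types in the differences of the receptor loci was not tested from these lists.

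Loci with the most similar levels across the 12 libraries, by the root mean square difference, were named for each gene as a description. For Kit they were Ap5z1 (0.551 points) and Ddr1 (0.612 points). For Flt3 they were H2-DMa and Snx24, for Csf3r Taldo1 and Cbfa2t3, and for Il3ra Edf1 and Rassf5. For Csf1r they were Albfm1 (2.05 points) and Srarp (2.14 points), for Csf2rb Slc11a1 and Man1c1, for Csf2rb2 Gm42346 and Adgb, and for Csf2ra Fgf12 and Tfap2d. In the RefSeq promoter windows, RUNX letters TGTGGT occurred in none of the 6 genes with a window, PU.1 letters GAGGAA in those of Kit, Csf3r, Csf2ra and Csf2rb2, and STAT letters TTCNNNGAA in that of Csf2rb2, on either strand. Of 32851 windows of this length, 16.8% held the first, 28.3% the second and 8.30% the third.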

How the data were processed

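Counts of methylated and unmethylated reads per CpG and strand, 1 table per library, were deposited by the authors without normalisation. Bismark, methylKit 1.20.0, cutadapt 2.7 and Trim Galore 0.6.4, with the build mm10, are named in the submitters' processing notes. The Bismark version, duplicate removal and bisulfite conversion rate were not given in the sources used here. Unconverted cytosines read as methylated, and duplicate reads make counts look deeper than they are.

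Both strands of a CpG were summed, and CpGs with at least 10 calls in all 12 libraries were kept, on the autosomes and X. Units were gene loci (gene and 5 kb at each end, at least 3 CpGs), 1000-bp tiles (at least 3 CpGs) and single CpGs. Each unit's mean CpG fraction, weighted by its calls, was fitted by a quasi-binomial logistic model over the 8 libraries compared, with an F test, empirical Bayes moderation of the dispersion in bins of methylation and Benjamini-Hochberg adjustment over all units of that kind. Gene positions, promoter sequences and start sites came from RefSeq tables of GRCm38.p6, which is mm10. Python 3.11.15, numpy 2.4.6, scipy 1.17.1, pandas 2.3.3, matplotlib 3.10.9, R 4.3.3 and limma 3.58.1 were used. On simulated counts for 17319 loci, 66 of 100 changes of 15 points and 89 of 100 of 30 points were recovered for CD11b-positive against PBS, with 4 false calls. The changes were placed only in loci of middle methylation.

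Library depth of 112671408 to 157223205 calls gave the named CpGs 12 to 1004 calls per library. Reads are not independent molecules, so counts and depths cover counting error only. The genes and lists were chosen with earlier results of these data known. All 8 genes are named, with their called tiles (the 5 largest gains and losses, and the largest difference of each gene), the called CpG of largest difference in each gene, the 2 most similar loci of each gene, and called genes of the lists. One called list gene is not reported here. Further tiles and CpGs, and the stretches described, were chosen after their values were seen and carry no test.

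Replicate numbers in the titles were used to pair the CD11b-positive and CD11b-negative libraries in the block. The deviations of same-numbered libraries from their group means over loci correlated at 0.264, 0.966, 0.802 and 0.821, each above the 0.1 required. Other numbers correlated as highly in places, CD11b-positive library 1 with CD11b-negative 3 and 4 (0.346 and 0.350) and CD11b-positive 4 with CD11b-negative 3 (0.836), so only number 2 stands clear. PBS library 2 also correlated with both treated libraries 2 (0.833 and 0.865), so this does not establish a pair. The labels do not say that a number marks a mouse. The labels give no batch. Alternatives were 5 or 20 calls per CpG, pooled counts, the gene body alone, all 12 libraries in one fit, limma on log2 ratios with 1 added to each count, the replicate block, the Y-linked share as a term, and leaving out each library.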

Additional observations from a re-analysis of the deposited data

Results flagged for a closer look

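Sets of values were taken within each group of 4 libraries for the loci and the named tiles and CpGs. Chance alone gives a flag in about 1 in 20 sets. These sets share CpGs, and the tiles and CpGs were picked by their differences, so the count of flags carries no test. In 9 of 72 sets 1 library stood apart from the other 3 by a gap large against the range (Dixon's test). In 6 of them CD11b-negative library 2 was the highest: the Csf1r locus at 89.5% (the other 3 between 60.2 and 64.6%), the Csf3r locus at 40.8% (32.3 to 32.6%), the Kit locus at 29.7% (25.2 to 25.6%), the Kit tile from 75608001 at 74.9% (19.1 to 25.9%), the Csf1r tile from 61104001 at 91.7% (60.6 to 63.9%) and the Kit CpG at 75608316 at 67.7% (17.3 to 25.8%). CD11b-positive library 2 was the lowest for the Csf2ra locus, at 20.04% (the others 28.1 to 28.8%), and the highest for the Csf1r CpG at 61109676, at 94.7% (61.9 to 67.5%). PBS library 1 was the lowest for the Csf3r locus, at 31.03% (31.7 to 31.8%).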

How the results depend on the processing

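With the Y-linked share as a term, the receptor counts for CD11b-positive against PBS cells were 0 loci, 0 tiles and 1 CpG. Over all units they were 1 of 17319 loci, 47 of 87020 tiles and 970 of 1052856 CpGs. Csf2rb2 (16.1 points) and Csf1r (1.86 points) were no longer called. The same term gave 1 receptor CpG call between CD11b-positive and CD11b-negative cells, and 174 calls over all CpGs. It turned the direction of the Csf2ra locus (2.44 points against PBS, 3.08 points against CD11b-negative cells), of the Csf1r (-0.932), Csf3r (-0.501) and Csf2rb (-0.725) loci between CD11b-positive and CD11b-negative cells, and of Csf2rb between CD11b-negative and PBS cells (-0.364). Between CD11b-positive and PBS cells it turned the Il3ra tile (-4.12), the Csf1r tile from 61104001 (-3.05), the Csf2ra tile (4.97), the Il3ra CpG (-5.31) and the Csf2ra CpG (0.280). Between CD11b-positive and CD11b-negative cells it turned the tiles of Csf1r from 61104001 (-4.54), Csf2ra (5.89), Flt3 (-3.09) and Il3ra (-2.69), and the CpGs of Csf1r (-11.9, against 15.9 without the term), Csf2rb (-3.86), Il3ra (-2.68) and Csf2ra (0.637), none of them called with or without the term. The share did not overlap between CD11b-positive and PBS libraries, so the differences between those groups with this term rest on extrapolation. The cause was not tested.

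All 12 libraries in one fit left 19 called receptor CpGs between CD11b-positive and PBS cells, where 77004 of all 1052856 CpGs were called. The named CpGs of Csf1r, Csf2ra, Flt3 and Il3ra (adjusted p = 0.0513 to 0.109) and the named tiles of Csf2ra and Il3ra (0.0869 and 0.0619) were not called then. Without single libraries the tile count ran from 5 to 9 and the CpG count from 35 to 57. Over all units they ran from 26865 to 31922 tiles and from 119786 to 172686 CpGs. Between CD11b-positive and CD11b-negative cells the replicate block gave 1 locus (Csf1r, 10.9 points), 3 tiles and 22 CpGs. Without single libraries these counts ran from 0 to 2, 0 to 4 and 0 to 29, the highest without CD11b-negative library 2 (Csf1r 17.4, Csf2rb2 14.4 points). The lowest were 7.05 and 7.09 points for those loci. Csf2rb was called with at least 5 calls (19.7 points).

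Between CD11b-negative and PBS cells the Il3ra difference was positive with at least 5 calls (1.77), 20 calls (0.717), pooled counts (1.502) and limma (1.502), and ran from -1.39 to 0.853 without single libraries. Pooled counts and limma gave -0.275 for Csf3r and -1.24 for Kit, and Csf2rb ran from -0.922 (without CD11b-negative library 2) to 5.64. None of these was called. PBS and treated libraries come from mice given different injections, so a shared replicate number marks no pair between them. Number 2 still deviated alike in all 3 groups. Same-number correlations were 0.287, 0.833, 0.454 and -0.179 for CD11b-positive and 0.583, 0.865, 0.560 and -0.205 for CD11b-negative libraries. The block gave 2 receptor loci and 58 receptor CpGs for CD11b-positive against PBS and changed no receptor locus call. Over all units it gave 3276 of 17319 loci and 194382 of 1052856 CpGs.

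Depth limits Csf2rb (3 CpGs) and Csf2rb2 (6 CpGs), which few fragments cover in all libraries.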
